A study of Xenopus tropicalis with 15 samples.

Results

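Regenerating tail tissue of wild-type Xenopus tropicalis tadpoles treated with 2-methoxyestradiol (2ME) was compared with tissue treated with its DMSO control. The members are 6 RNA-seq libraries of the 15 in the series, chosen by their titles alone: 3 from tadpoles kept in 5 µM 2ME and 3 from tadpoles kept in 0.1% DMSO. Tails were cut at NF stage 41, 3 days after fertilisation, taking off their posterior part, and the tadpoles were reared at 23 °C in diluted Modified Ringers. About 250 µm of regenerating tissue was taken at 24 hpa (hours post amputation), and total RNA was sequenced in paired-end libraries. The other libraries, 3 in each group, were untreated tissue from just anterior to the cut at 0 hpa and regenerating tissue at 24 hpa in 0.5 µM echinomycin or 10 µM IWR-1. They entered the fit, and both compounds served as direct comparisons at their own doses. The study set antagonists of Hif1a and of Wnt signalling side by side, and this comparison asks how the first of them changes the regenerating tail. Neither the meaning of a replicate number, nor how many tails were pooled, nor whether the 2ME medium held DMSO is stated in the labels. The p-values therefore measure the spread between these libraries, which may be technical.

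2-Methoxyestradiol is made in the body from oestradiol by methylation of a catechol intermediate. It binds tubulin at the colchicine site and disturbs microtubules, and in mammalian cells it lowers the HIF1A protein, which pairs with ARNT to switch on genes of the hypoxia response. Free tubulin dimers are known in mammalian cells to shorten the life of tubulin mRNAs through TTC5, which recognises tubulin as it is being translated. An amputated Xenopus tadpole tail rebuilds spinal cord, notochord, muscle, vessels and skin beneath a wound epidermis, in the presence of macrophages and neutrophils.

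Rounded estimated counts of the tested models summed to 18566364 to 23366815 in the DMSO libraries and 21231050 to 22850906 in the 2ME libraries, and 18823 of 34192 gene models had enough to be tested. Levels are counts relative to library size (CPM), scaled by TMM factors, as mean ± SD with n = 3 per group. Differences are log2 ratios of 2ME over DMSO from edgeR, given ± SE. The SE was derived as the size of the ratio divided by the square root of its quasi-likelihood F statistic. A gene is said to have risen, fallen or been called when its adjusted p was under 0.05. The labelled tissue carried its markers: neurons, muscle, epidermis and leukocytes were all represented in each of the 6 libraries. On the third principal component, with 10.1% of the variance in log2 CPM, the 2 groups separated. TMM factors were 0.913 to 0.959 for DMSO and 1.03 to 1.05 for 2ME, and without any factor the median log2 ratio of all tested models moved by 0.14, from -0.02 to 0.12. Calls then divided into 74.0% higher and 26.0% lower, against 45.8% and 54.2% with the factors. Limma on the deposited CPM values gave 75.4% and 24.6%. Changes below are therefore relative to the median gene, and where the larger of a list's 2 counts changes sides without a factor, the alternative counts are given.

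The log2 ratio also followed transcript length. Models under 1000 bases had a median log2 ratio of -0.15 and 22.7% of them were called lower, while models of 5000 bases or more had a median of 0.08 and 22.4% of them were called higher. Measured from the mean of all 15 libraries, the DMSO libraries deviated with length more than the 2ME libraries did, DMSO replicate 2 most. That mean holds the libraries of all 3 compounds, so a trend in DMSO and one shared by the compounds cannot be told apart. The medians of 2ME over echinomycin and over IWR-1 stayed between -0.06 and 0.03 in all 5 length classes. Removing each library's trend left 5594 called models, of which 4957 were shared with the 5749 of the reported fit and 0 had the opposite sign. Its part in any single result was not tested, and list counts with the trend removed are given where either count of a list moved by 3 or more.

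**Figure D1:**
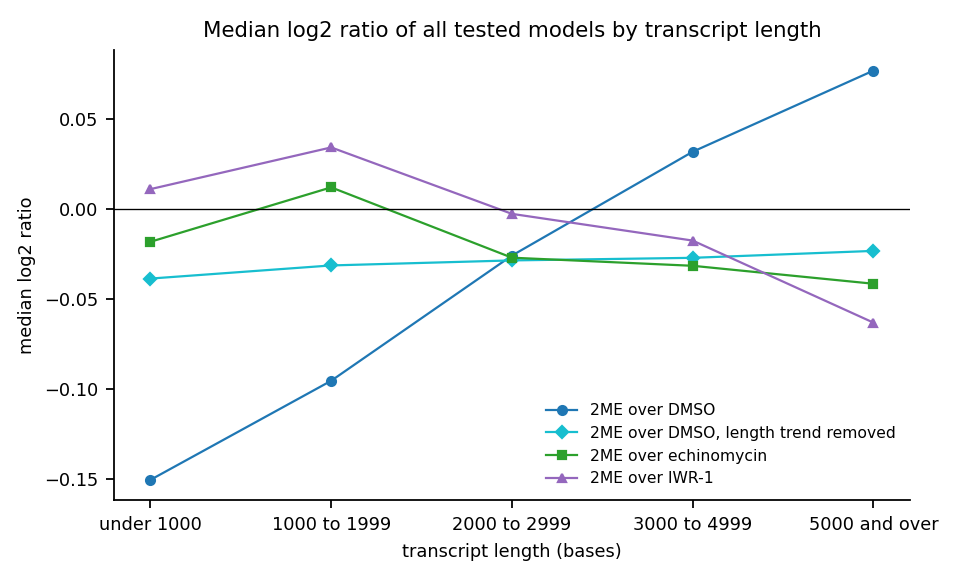
Median log2 ratio of all tested models in 5 classes of transcript length (bases), for 2ME over DMSO as reported and with each library's length trend removed, and for 2ME over echinomycin and over IWR-1. The 2ME over DMSO line runs from -0.15 in the shortest class to 0.08 in the longest, and the other lines stay between -0.06 and 0.03.

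Of all tested models, 30.5% were called between 2ME and DMSO, 14.0% higher and 16.5% lower, and 4.64% were called with a difference of 2-fold or more. In 45.3% the libraries of the 2 groups did not overlap. These shares are the background for every count of members between 2ME and DMSO in the reported fit. Counts under an alternative have their own background, such as 4550 higher and 1598 lower of 18823 models with no scaling factor. Without DMSO replicate 2, 3766 models were called in place of 5749, 1940 of them lower in place of 3115. The largest named rises included papss2, which makes the sulfate donor used by sulfotransferases, at 63.3, 52.0 and 70.2 CPM in the DMSO libraries and 257, 252 and 249 CPM with 2ME. All 2ME libraries lay far above all DMSO libraries, with a log2 ratio of 2.03 ± 0.15 (adjusted p = 1.4e-07). St3gal5, the ganglioside GM3 synthase, rose from 1.37 ± 0.654 to 5.5 ± 0.431 CPM, and the epithelial mucin gene muc4 from 21.0 ± 13.2 to 86.5 ± 21.1 CPM. Other large rises were teddm1 (2.16 ± 0.19), tmc3 (1.83 ± 0.19) and cnfn.1, a cornifelin gene (1.78 ± 0.36). Among the largest falls were gpnmb, a glycoprotein of macrophages and pigment cells, from 6.55 ± 0.303 to 1.91 ± 0.456 CPM, the interferon-induced GTPase gene gbp5 from 9.35 ± 3.25 to 2.76 ± 0.119 CPM and the galectin gene lgals1.1 from 12.9 ± 1.90 to 4.05 ± 0.779 CPM. Aif1l, an actin-binding protein gene, fell from 32.4 ± 2.92 to 10.5 ± 2.11 CPM. The named fall of greatest size, the cell cycle inhibitor gene cdkn2d (gene10649), stood at 1.77, 15 and 5.23 CPM with DMSO and 0, 1.3 and 0 CPM with 2ME. Its call was lost without DMSO replicate 2 and in DESeq2.

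**Figure D2:**
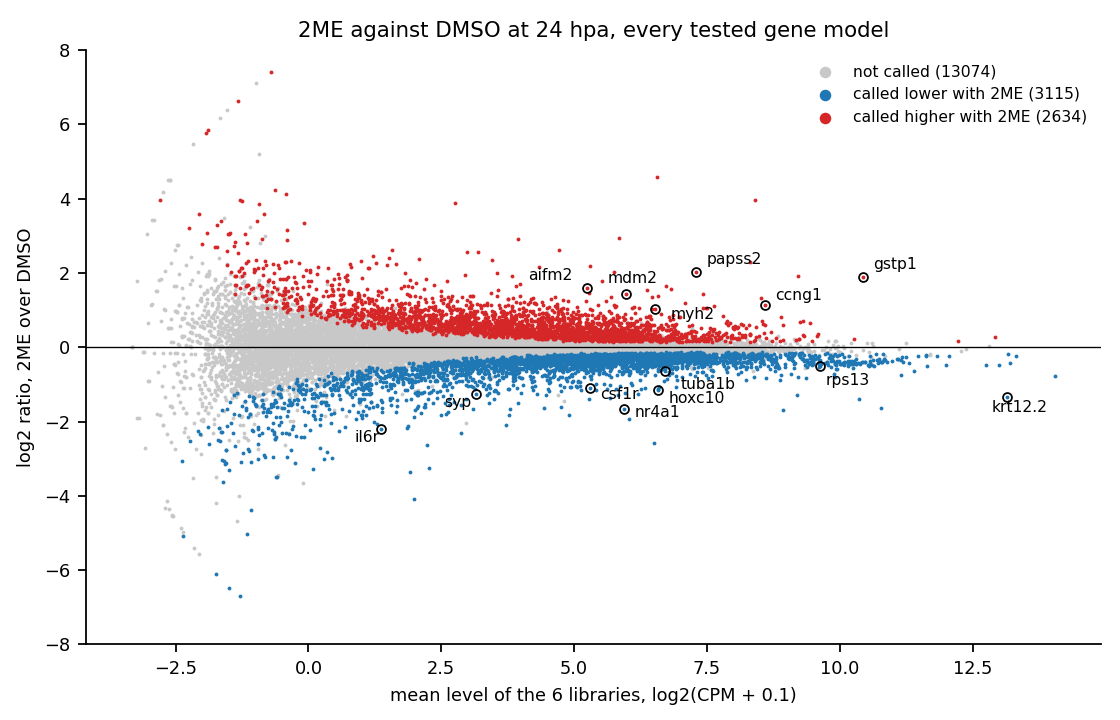
Log2 ratio of 2ME over DMSO against mean level of the 6 libraries, log2(CPM + 0.1), for each of the 18823 tested gene models, coloured by call. The 2634 models called higher and 3115 called lower spread over the whole range of levels, and circled genes are described in the text.

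Tubulin mRNAs were lower with 2ME. Of 7 alpha tubulin models tested 5 fell and 0 rose (4 and 1, tuba8, with no scaling factor or with the length trend removed), and of 8 beta tubulin models 6 fell and 0 rose, with median log2 ratios of -0.40 and -0.35 against -0.02 over all tested models. The alpha tubulin gene tuba1b was at 134, 138 and 110.2 CPM in the DMSO libraries and at 80.9, 83.2 and 82.1 CPM with 2ME. The 2ME libraries lay close together and below every DMSO library, and the log2 ratio was -0.63 ± 0.07 (adjusted p = 1.8e-05). Tuba1a fell from 115 ± 11.9 to 68.0 ± 4.04 CPM, and tuba4b (-0.44 ± 0.07) and tubal3 (-0.40 ± 0.07) fell less. The beta tubulin gene tubb4a (gene6556) was at 507, 534 and 519 CPM with DMSO and at 377, 370.2 and 384 CPM with 2ME, again with no overlap (-0.46 ± 0.05). Tubb2b (-0.52 ± 0.11), tubb4b (-0.31 ± 0.07) and tubb (-0.28 ± 0.05) fell too. Tuba3c (gene33426) (-0.20 ± 0.06), tubb3 (-0.40 ± 0.12) and the second tubb4a model (gene31044) (-0.27 ± 0.07) lost their calls with no scaling factor, and the first 2 also without 2ME replicate 1, 2ME replicate 2 or DMSO replicate 2. Tuba8 (0.31 ± 0.12; it was called higher also with upper-quartile factors, in limma and without DMSO replicate 1) and tubb1 (-0.82 ± 0.65) did not pass the test, nor did either of the 2 tested genes of gamma, delta and epsilon tubulin, 1 of which rose with no scaling factor. The libraries of the 2 groups did not overlap in any of the 15 models, tuba8 being the one that was higher with 2ME. Tubulin copies are near-identical, so reads may be shared among them and each single value is uncertain. Ttc5 itself, the recognition factor, was at 16.6, 20.4 and 17.6 CPM with DMSO and 14.8, 16.9 and 14.1 CPM with 2ME and did not pass (-0.26 ± 0.11, adjusted p = 0.092). Cnot11, a subunit of the deadenylase complex that TTC5 recruits in mammals, fell from 27.9, 28.2 and 28.5 CPM to 22.2, 21.9 and 21.6 CPM (-0.36 ± 0.06). Among 25 genes of tubulin folding and autoregulation 9 fell, with pfdn4 of the prefoldin chaperone at -0.44 ± 0.08, and 2 rose, cnot1 (0.21 ± 0.06) and tbcel (0.43 ± 0.14). With no scaling factor that count became 3 lower and 6 higher, 6 lower and 0 higher with the length trend removed, and 5 lower without DMSO replicate 2. The call of tbcel was lost without any one of the 6 libraries, and that of cnot1 without 2ME replicate 1.

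Against the other compounds the tubulins divided. All comparisons between compounds set different doses against each other, 5 µM of 2ME against 0.5 µM of echinomycin or 10 µM of IWR-1. Over all tested models 22.8% were called higher and 21.3% lower with 2ME than with echinomycin, and 11.1% higher and 11.4% lower than with IWR-1. Tuba1b was lower with 2ME than with echinomycin (-0.39 ± 0.07, adjusted p = 0.00044) and than with IWR-1 (-0.22 ± 0.07, adjusted p = 0.047). Tuba1a did not differ detectably from either, with ratios of -0.09 ± 0.10 and -0.01 ± 0.10. Tubb4b and tubal3 were higher with 2ME than with either compound, tubb4b by 0.73 ± 0.07 over echinomycin and 0.38 ± 0.07 over IWR-1. Of the 15 alpha and beta tubulin models tested, 9 were higher and 3 lower with 2ME than with echinomycin, and 3 were higher and 5 lower than with IWR-1. Both other compounds also had lower tubulin mRNAs than DMSO. With echinomycin 6 of 7 alpha models were lower and 1 higher, and 7 of 8 beta models lower (medians -0.66 and -0.65). With IWR-1 6 alpha models were lower and 1 higher, and 4 beta models lower (medians -0.42 and -0.29). Over all tested models the medians against DMSO were 0.01 with echinomycin and -0.02 with IWR-1. Shares of all tested models called in these 2 comparisons are not given here.

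Genes of DNA replication and S phase were lower with 2ME, while those of G2 and mitosis were called less often than all tested models in the reported fit. Of 60 tested replication genes 32 fell and 1 rose, with a median log2 ratio of -0.34. The origin recognition gene orc6 was at 31.2, 36.6 and 32.0 CPM with DMSO and 21.7, 21.1 and 20.8 CPM with 2ME (-0.65 ± 0.09). The chromatin assembly gene chaf1a fell from 74.9 ± 5.28 to 46.2 ± 4.03 CPM and thymidine kinase gene tk1 from 73.2 ± 8.86 to 46.0 ± 1.15 CPM, and the histone mRNA-binding gene slbp (-0.43 ± 0.08) and the replicative helicase gene gins1 (-0.66 ± 0.12) fell too. The one that rose, mcm3, was low at 0.408 ± 0.185 and 1.39 ± 0.367 CPM and was singled out after its values were seen. This count depends on the libraries and the scaling: 14 fell without DMSO replicate 2, 21 without 2ME replicate 1 and 13 with no scaling factor. Of 67 tested genes of G2 and mitosis 7 rose and 7 fell (10.4% each), with a median of 0.03. Those shares were 14.0% and 16.5% over all tested models. The mitotic spindle genes ckap2 (0.29 ± 0.07) and dlgap5 (0.25 ± 0.06) rose, while pkmyt1, a kinase that holds CDK1 inactive, fell (-0.57 ± 0.10), as did the condensin gene smc4 (-0.43 ± 0.10). Rises numbered 2 without 2ME replicate 1 or DMSO replicate 2, 3 without DMSO replicate 1 and 4 without 2ME replicate 2 or 2ME replicate 3, against 15 with the 2 groups fitted alone and 17 with no scaling factor. Falls numbered 3 without DMSO replicate 2 or with no scaling factor and 4 without 2ME replicate 1. With the 2 groups fitted alone 9 fell, where 5666 of 17525 models were called. In that fit the list was not called less often than all tested models. Compared with echinomycin, 63 of the 67 were higher with 2ME and 1 lower, and compared with IWR-1 19 were higher and 0 lower. Of the replication genes 43 were higher and 2 lower with 2ME than with echinomycin, and 2 were higher and 9 lower than with IWR-1. Among 41 microtubule regulators 12 fell, including the axonal genes map1a (-0.77 ± 0.14) and dclk1 (-0.79 ± 0.17), and 4 rose, tacc1 at 0.54 ± 0.11, clasp1 (gene30525) at 0.62 ± 0.20, ttl at 0.58 ± 0.19 and dcx at 1.14 ± 0.35. Clasp1 and ttl were singled out after their values were seen. The count became 3 lower and 1 higher without DMSO replicate 2, 4 lower and 1 higher without 2ME replicate 1, 6 lower without 2ME replicate 3 or DMSO replicate 3, and 3 lower and 10 higher with no scaling factor.

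Eda2r, mdm2 and ccng1, from a list of genes linked to DNA damage, growth arrest and cell death, rose with 2ME. Of these, eda2r had the largest ratio of the list (2.92 ± 0.17). Mdm2, which encodes a ubiquitin ligase and is switched on after DNA damage, was at 32.5, 33.4 and 36.1 CPM in the DMSO libraries and at 100.3, 83.8 and 91.8 CPM with 2ME. Every 2ME library exceeded every DMSO library more than 2-fold, and the log2 ratio was 1.43 ± 0.09 (adjusted p = 1.2e-08). Cyclin G1 gene ccng1 rose from 241 ± 10.8 to 528 ± 13.3 CPM, the translesion polymerase gene polk from 14.8 ± 0.252 to 31.2 ± 0.904 CPM and the apoptosis-enhancing nuclease gene aen from 19.4 ± 1.48 to 35.9 ± 1.53 CPM. Cdkn1a, the p21 inhibitor of cyclin-dependent kinases, was at 42.0, 38.2 and 36.8 CPM with DMSO and 66.2, 63.3 and 70.4 CPM with 2ME (0.77 ± 0.11). Over the list 16 of 51 tested genes rose (31.4%) and 8 fell (15.7%), with a median of 0.07. The falls included gadd45g (gene26127), a growth arrest gene, at -0.59 ± 0.08. Falls numbered 5 without 2ME replicate 1 or DMSO replicate 2 and 4 with no scaling factor. Mdm2 was higher with 2ME than with echinomycin (0.35 ± 0.08), whereas ccng1 (-0.99 ± 0.09), aen (-0.52 ± 0.10) and polk (-0.40 ± 0.09) were lower. All 4 were higher with 2ME than with IWR-1, by 1.46 ± 0.09 for mdm2 and 1.04 ± 0.09 for ccng1. Over the list 8 genes were higher and 21 lower than with echinomycin, and 17 higher and 5 lower than with IWR-1.

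Among 29 tested apoptosis genes 9 rose and 5 fell, with a median of 0.06. Aifm2, a flavoprotein that also protects cells from ferroptosis as FSP1, rose from 15.9, 19.2 and 20.4 CPM to 54.3, 58.1 and 57.3 CPM. It was the one with the smallest p, at 1.61 ± 0.10, and it was higher with 2ME than with echinomycin (1.52 ± 0.10) and IWR-1 (1.41 ± 0.10). Bcl2l13 (0.82 ± 0.15) and bok (0.52 ± 0.11), of the BCL2 family, rose as well. The falls included the death receptor adaptor gene fadd (-0.42 ± 0.09), the initiator caspase gene casp9 (-0.24 ± 0.08) and the nuclease inhibitor gene dffa (-0.26 ± 0.06). Of the 5 falls 1 was called with no scaling factor, and the call of casp9, singled out after its values were seen, was lost under 12 alternatives. Rises numbered 5 without 2ME replicate 1 or 2ME replicate 2, and falls 3 without 2ME replicate 1, DMSO replicate 1 or DMSO replicate 2.

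Genes of the Nrf2 response, which conjugate electrophiles and regenerate glutathione and NADPH, were higher with 2ME. Of 52 tested genes 22 rose (42.3%) and 4 fell (7.69%), 9 rose by 2-fold or more, and the median was 0.21. The glutathione transferase gene gstp1 was at 619, 610.4 and 525 CPM with DMSO and at 1962, 2198 and 2387 CPM with 2ME. Every 2ME library held more than 3 times the level of every DMSO library (1.90 ± 0.09, adjusted p = 2.1e-09). Glutathione reductase gene gsr rose from 67.9, 73.7 and 65.9 CPM to 126, 131 and 131 CPM, again without overlap (0.90 ± 0.06). The cystine transporter gene slc7a11 (1.14 ± 0.10), carbonyl reductase gene cbr1.1 (1.11 ± 0.10), thioredoxin reductase gene txnrd3 (0.49 ± 0.05) and pgd of the pentose phosphate pathway (0.51 ± 0.05) rose too. The falls were nfe2l2 (-0.19 ± 0.05), which encodes NRF2, slc3a2 (-0.35 ± 0.06), mafb (-0.20 ± 0.06) and aldh7a1 (-0.21 ± 0.06). Falls numbered 2 without 2ME replicate 1, DMSO replicate 2 or DMSO replicate 3 and 1 with no scaling factor, the count was 25 higher and 5 lower with the length trend removed, and nfe2l2, mafb and aldh7a1 were singled out after their values were seen. Gstp1, gsr and cbr1.1 were also higher with 2ME than with echinomycin (gstp1 3.01 ± 0.10) and than with IWR-1 (gstp1 2.06 ± 0.09). Slc7a11 was higher than with echinomycin (1.36 ± 0.11) and lower than with IWR-1 (-0.50 ± 0.10). Over the list 29 were higher and 9 lower than with echinomycin, and 19 higher and 7 lower than with IWR-1.

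Several enzymes that remove peroxides were lower. Of 27 tested antioxidant enzymes and NADPH oxidases 10 fell and 1 rose, with a median of -0.24. The glutathione peroxidase genes gpx7 (-0.52 ± 0.09), gpx4 (-0.44 ± 0.09) and gpx8 (-0.34 ± 0.07) and the peroxiredoxin gene prdx5 (-0.48 ± 0.09) fell, as did cybb, the phagocyte oxidase subunit (-0.69 ± 0.12). Nox4, an oxidase that forms hydrogen peroxide, was the one that rose, from 3.73 ± 0.799 to 8.82 ± 1.39 CPM. A fit with no scaling factor gave 5 falls and 4 rises, 6 fell without DMSO replicate 2, and 3 rose and 7 fell with the length trend removed. Among 62 tested genes of steroid and xenobiotic metabolism 13 rose (21.0%, against 14.0% of all tested models) and 10 fell (16.1%, against 16.5%). Their median was -0.02. The efflux pump gene abcg2 rose from 114, 114 and 122 CPM to 238, 245 and 246 CPM, abcb1 by 1.2 ± 0.12, the sulfotransferase gene sult1a1 by 1.37 ± 0.12, cyp2f1 by 1.73 ± 0.21 and the P450 reductase gene por by 0.37 ± 0.06. Cyp26a1, which breaks down retinoic acid, was at 31.4, 34.8 and 27.7 CPM with DMSO and 11.3, 12.3 and 14.8 CPM with 2ME. The groups were well apart (-1.29 ± 0.11, adjusted p = 9.3e-07), and the level was also below those with echinomycin (-0.91 ± 0.11) and IWR-1 (-1.61 ± 0.11). Sult1a1 (-1.06 ± 0.12) and papss2 (-0.94 ± 0.14) were lower with 2ME than with IWR-1 and higher than with echinomycin (1.2 ± 0.12 and 1.66 ± 0.15). The oestrogen hydroxylase genes cyp1a1 (1.79 ± 0.425 and 1.64 ± 0.471 CPM) and cyp1b1 (1.27 ± 0.533 and 1.31 ± 0.139 CPM) were low in both groups and did not pass. Of 16 tested oestrogen and xenobiotic receptors and cofactors 6 rose and 0 fell, with a median of 0.18. They were the orphan receptor genes esrrg (0.77 ± 0.13) and esrra (0.32 ± 0.06), nr3c2 (0.28 ± 0.10), arnt (0.21 ± 0.06) and the coactivator genes ncoa3 (0.98 ± 0.22) and ncoa2 (0.21 ± 0.06). Rises numbered 3 without 2ME replicate 1 or DMSO replicate 2. The calls of nr3c2, arnt and ncoa2 were lost with the length trend removed, and 11 of the list rose with no scaling factor. Against DMSO, 10 of these receptors and cofactors were higher and 0 lower with IWR-1, and 4 higher and 2 lower with echinomycin. Their medians were 0.29 with IWR-1 and 0.11 with echinomycin, against -0.02 and 0.01 over all tested models. Shares of all tested models called in these 2 comparisons are not given here. Between compounds, 3 of the list were higher and 0 lower with 2ME than with echinomycin, and 1 higher and 3 lower than with IWR-1. Falls in steroid and xenobiotic metabolism numbered 6 without DMSO replicate 2 and 5 with no scaling factor. Esr1, esr2 and gper1, the oestrogen receptors, were too low to be tested.

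Hif1a, epas1 and arnt, which encode subunits of HIF, were higher in mRNA with 2ME. Of 13 tested genes of HIF and oxygen sensing 5 rose and 2 fell, with a median of 0.09. Epas1, which encodes HIF2A, was at 11.1 ± 0.979 CPM with DMSO and 21.5, 21.5 and 21.7 CPM with 2ME (0.96 ± 0.14). Hif1a rose by 0.25 ± 0.05 and arnt by 0.21 ± 0.06, while the ubiquitin ligase gene vhl rose from 2.73 ± 0.63 to 4.71 ± 0.626 CPM and the coactivator gene ep300 by 0.19 ± 0.06. Cited4 (-0.34 ± 0.09) and crebbp (-0.16 ± 0.06), of the coactivator machinery, fell. Rises numbered 3 with the length trend removed, without 2ME replicate 1 or without 2ME replicate 3, where arnt and ep300 were lost, and 2 without DMSO replicate 2, where vhl was lost too. The call of crebbp was lost under 12 alternatives, and that of cited4 with no scaling factor. None of the oxygen sensor genes egln1, egln2, egln3 and hif1an passed. Against DMSO, 6 of the 13 were higher and 2 lower with echinomycin, and 6 higher and 3 lower with IWR-1. Their medians were 0.12 with echinomycin and 0.11 with IWR-1, against 0.01 and -0.02 over all tested models. Shares of all tested models called in these 2 comparisons are not given here. Between compounds, 1 of the 13 was higher and 1 lower with 2ME than with echinomycin, and 0 higher and 1 lower than with IWR-1. Of 62 tested HIF1 targets 15 rose (24.2%, against 14.0% of all tested models) and 6 fell (9.68%, against 16.5%). Their median was -0.01, with 30 ratios above 0 and 32 below. The lactate transporter gene slc16a1 (0.61 ± 0.06), carbonic anhydrase gene ca12 (0.43 ± 0.07), transferrin receptor gene tfrc (0.85 ± 0.15), the mitophagy gene bnip3l (0.55 ± 0.10), enolase gene eno1 (0.51 ± 0.10) and pfkfb4 (0.37 ± 0.07) rose. The 6 falls were the circadian repressor gene bhlhe41 (-0.71 ± 0.21), ddit4 (-0.62 ± 0.09), which restrains mTORC1, stc1 (-0.47 ± 0.17), ndrg1 (-0.39 ± 0.09), pgk1 (-0.33 ± 0.09) and pfkfb3 (-0.23 ± 0.06), bhlhe41, stc1, ndrg1 and pfkfb3 being singled out after their values were seen. The calls of bhlhe41, stc1 and pgk1 were lost without DMSO replicate 2, those of bhlhe41 and stc1 also without 2ME replicate 1 or 2ME replicate 2, and only ddit4 and ndrg1 kept theirs with no scaling factor. Falls numbered 3 without DMSO replicate 2 and 2 with no scaling factor, where 20 rose. Compared with echinomycin 13 targets were higher and 22 lower with 2ME, and compared with IWR-1 9 were higher and 19 lower. Eno1, for example, was at 300.0 ± 17.9 CPM with 2ME, 265 ± 27.1 CPM with echinomycin and 648 ± 62.5 CPM with IWR-1.

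**Figure D3:**
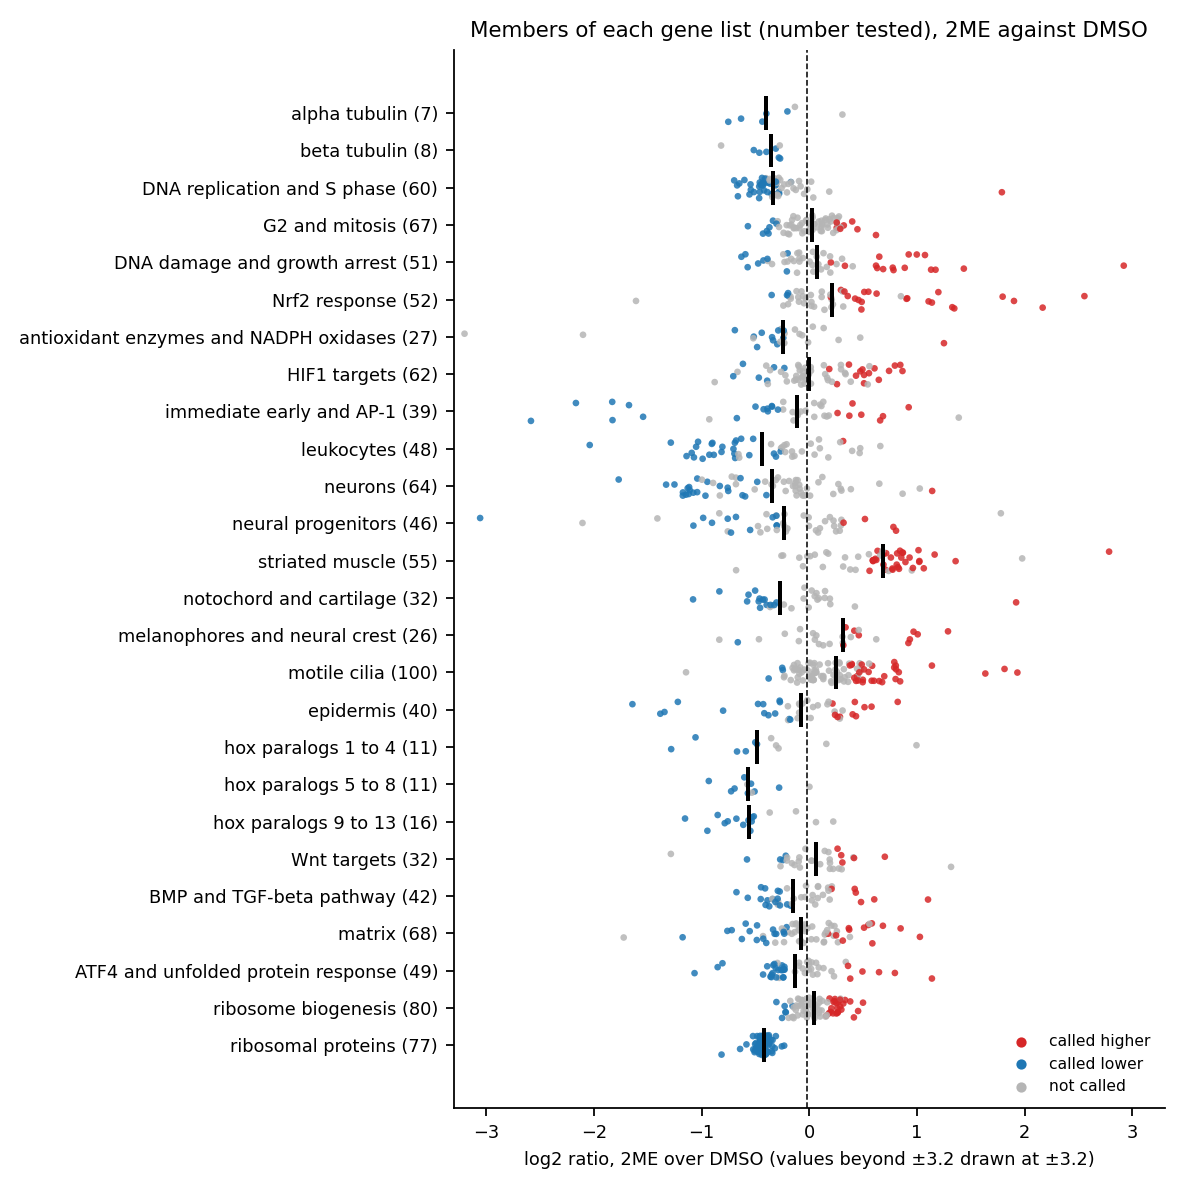
Log2 ratios of 2ME over DMSO for the tested members of 26 gene lists, one point per gene model coloured by call, with a bar at each list's median and a dashed line at the median of all tested models (-0.02). Ribosomal protein genes all lie below 0 (77 of 77 called lower), striated muscle genes lie mostly to the right (33 of 55 called higher), and tubulin and hox genes lie mostly to the left.

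Immediate early genes, which wounding and growth factors switch on within minutes, held some of the deepest falls. Of 39 tested 14 fell, 6 of them by 2-fold or more, and 7 rose, with a median of -0.11 that became 0.03 with no scaling factor, where 11 rose and 10 fell. The orphan receptor gene nr4a1 was at 91.2, 95.0 and 92.5 CPM with DMSO and 28.9, 30.0 and 28.6 CPM with 2ME. All 3 libraries of each group lay within a narrow range, far apart from the other group (-1.67 ± 0.12). Ier2 (-0.42 ± 0.06) and klf6 (-0.35 ± 0.06) fell to a lesser extent. Ier5l (0.48 ± 0.08), the stress-induced factor gene atf3 (0.92 ± 0.17), cebpb (0.68 ± 0.14) and klf4 (0.66 ± 0.14) rose, the last 3 singled out after their values were seen. Nr4a1 was also lower with 2ME than with echinomycin (-1.17 ± 0.12) and IWR-1 (-0.49 ± 0.12), and 16 of the list were lower and 5 higher than with echinomycin, 14 lower and 3 higher than with IWR-1. Of 52 tested cytokine and inflammation genes 12 fell (23.1%, against 16.5% of all tested models) and 7 rose (13.5%, against 14.0%). With no scaling factor 7 of them fell and 14 rose. The interleukin 6 receptor gene il6r was at 4.38, 4.67 and 3.14 CPM with DMSO and 0.962, 0.638 and 1.01 CPM with 2ME, -2.21 ± 0.21 on the log2 scale. Its ratio was -2.28 ± 0.21 against echinomycin and -2.03 ± 0.21 against IWR-1. The chemokine genes cxcl14 (-1.36 ± 0.13), ccl5 (-1.61 ± 0.17) and cxcl9 (-3.13 ± 0.55) fell, while il1r1 (0.86 ± 0.11) and the shared receptor subunit gene il6st (0.87 ± 0.16) rose.

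Leukocyte markers were lower with 2ME. Of 48 tested 25 fell (52.1%) and 1 rose, 7 fell by 2-fold or more, and the median was -0.44. The summed level of the list ran from 1205 to 1256 CPM in the DMSO libraries and from 969 to 1001 CPM with 2ME, with no overlap. In bulk tissue, fewer cells of a type and less RNA per cell cannot be told apart. Csf1r, the receptor that macrophages need, was at 51.9, 51.8 and 56.1 CPM with DMSO and 25.6, 23.2 and 26.2 CPM with 2ME (-1.09 ± 0.09, adjusted p = 6.4e-07). The 0 hpa tissue held 16.6 ± 2.19 CPM, so the 2ME level lay between that and DMSO. Spi1, the master factor of myeloid cells (-0.93 ± 0.10), the neutrophil granule gene mpo (-1.07 ± 0.09), the small GTPase gene rac2 (-1.03 ± 0.12), the GTPase regulator gene arhgdib (-1.14 ± 0.10) and the actin regulators of blood cells coro1a (-0.99 ± 0.14) and lcp1 (-0.69 ± 0.09) fell together. The one that rose, the integrin gene itga4 (0.31 ± 0.10), was singled out after its values were seen, and its call was lost without 2ME replicate 1, 2ME replicate 2, DMSO replicate 2 or DMSO replicate 3. Compared with echinomycin 37 markers were lower with 2ME and 1 higher, with a median of -1.18, and compared with IWR-1 28 were lower and 0 higher. Csf1r was at 92.8 ± 4.6 CPM with echinomycin and 67.3 ± 7.64 CPM with IWR-1, both above DMSO in value.

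Neuronal genes were lower as well. Of 64 tested 23 fell (35.9%), 13 by 2-fold or more, and 1 rose (dcx), with a median of -0.34, and their summed level was 618 to 690 CPM with DMSO and 484 to 497 CPM with 2ME. The synaptic vesicle gene syp was at 12.1 to 12.7 CPM with DMSO and 5.06, 4.79 and 5.74 CPM with 2ME, with a wide gap between the groups (-1.25 ± 0.11). Vesicle release genes snap25 (-1.12 ± 0.18), vamp2 (-1.13 ± 0.13) and cplx1 (-1.17 ± 0.13), the axon growth gene dpysl3 (-1.04 ± 0.08), the neurofilament gene ina (-1.08 ± 0.14) and the dendritic microtubule gene map2 (-0.76 ± 0.11) fell alongside. The call of dcx was lost without 2ME replicate 1, DMSO replicate 2 or DMSO replicate 3. Limma on the deposited CPM values called 15 lower of the 47 it tested. Compared with the other compounds 23 were lower and 15 higher than with echinomycin, and 19 lower and 3 higher than with IWR-1. Of 46 tested neural progenitor genes 12 fell and 4 rose, 6 and 9 with no scaling factor, with a median of -0.24. The neural stem cell gene sox3 (-0.98 ± 0.15), the lipid carrier gene fabp7 of radial glia (-1.08 ± 0.25), prom1 (-0.68 ± 0.14) and the ventral cord factor gene nkx6-1 (-0.76 ± 0.20) fell. Notch1 (0.78 ± 0.10), irx3 (0.81 ± 0.17), nes (0.52 ± 0.18) and gli2 (0.32 ± 0.12) rose, nes being singled out after its values were seen. The calls of nes and gli2 were lost with the length trend removed and without 2ME replicate 1, 2ME replicate 2 or DMSO replicate 2. Falls numbered 6 without 2ME replicate 3 or DMSO replicate 1 and 7 without DMSO replicate 2.

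Striated muscle genes were higher with 2ME. Of 55 tested 33 rose (60.0%) and 0 fell, with a median of 0.69. The groups did not overlap in only 19 of the 55, a smaller share than the 45.3% of all tested models. The summed level was 2985 to 3949 CPM with DMSO and 3835 to 6037 CPM with 2ME, and replicate 3 was the lowest library in each group. The fast myosin gene myh2 was at 66.9, 69.6 and 45.4 CPM with DMSO and at 143, 152 and 73.9 CPM with 2ME (1.02 ± 0.21). The third 2ME library was close to the highest DMSO library, and the 0 hpa tissue held 1891 ± 222 CPM. Cardiac-type actin gene actc1 (0.71 ± 0.14), troponin gene tnnc2 (0.82 ± 0.15), creatine kinase gene ckm (0.71 ± 0.15) and nebulin gene neb (0.84 ± 0.19) rose with similar ratios. When 2ME replicate 1 was left out, 21 of the list rose. With echinomycin 36 were higher than with 2ME and 1 lower, and with IWR-1 25 were higher and 1 lower. How much mature muscle each cut of tissue took in was not tested. Of 16 tested myogenic regulators 3 rose (18.75%, against 14.0% of all tested models) and 0 fell (against 16.5%). The rises were the receptor gene met (0.58 ± 0.09), eya1 (0.75 ± 0.21) and mef2d (0.45 ± 0.13). Eya1 and mef2d were lost without DMSO replicate 2, and 5 rose without 2ME replicate 3.

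**Figure D4:**
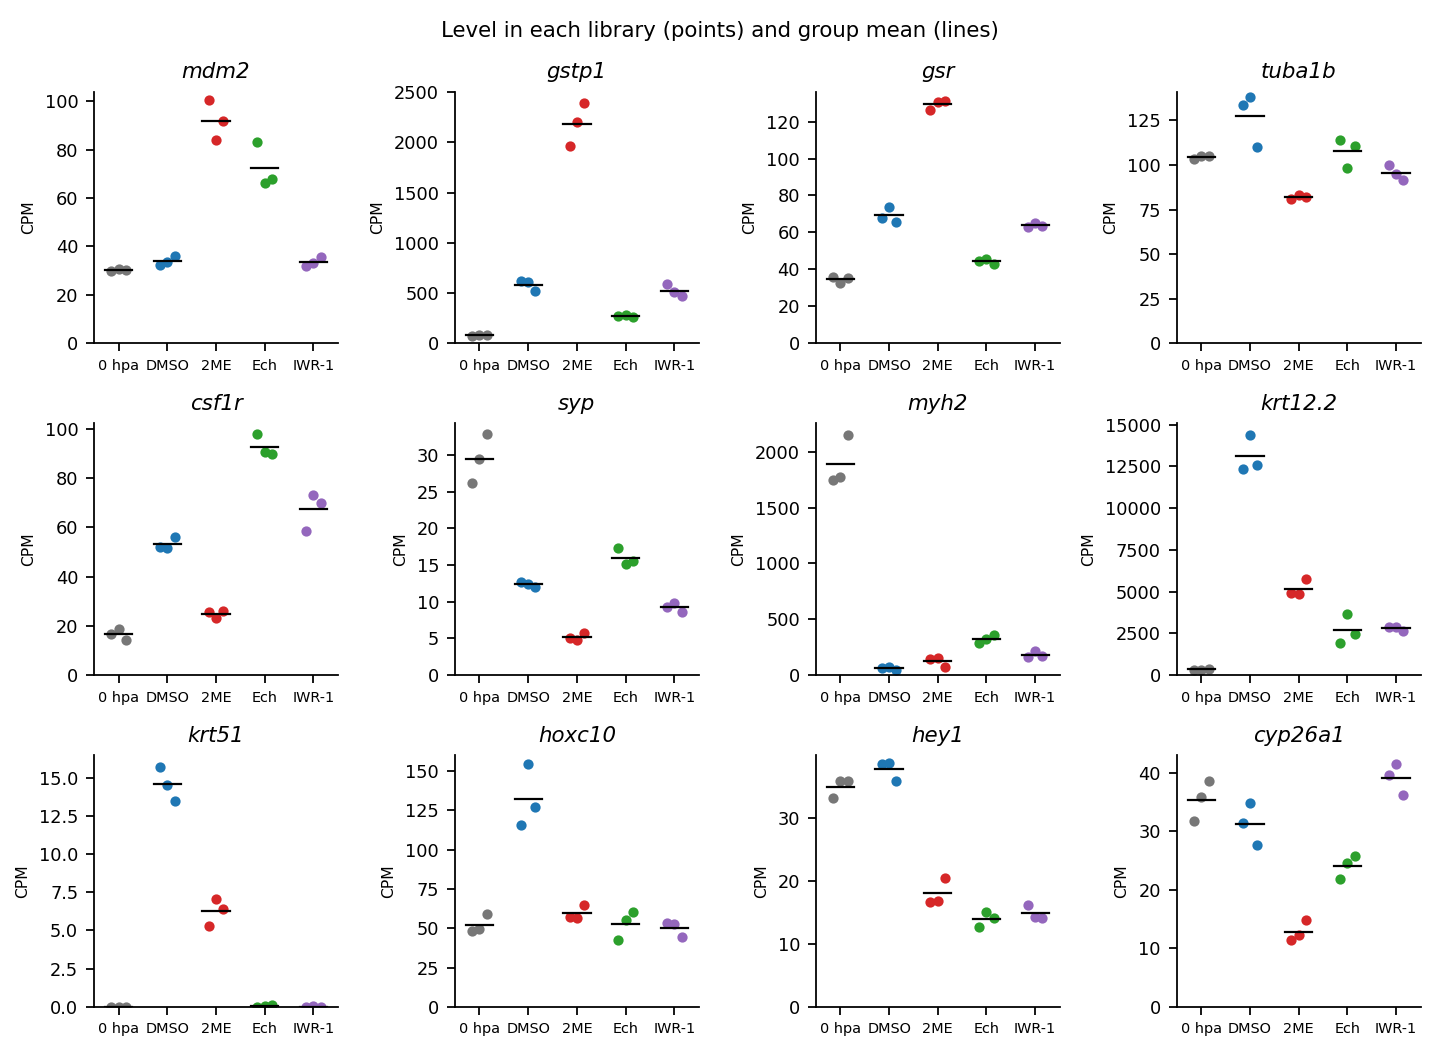
Level in CPM of 12 genes in each of the 15 libraries (points) with the mean of each group of 3 (lines), at 0 hpa and at 24 hpa with DMSO, 2ME, echinomycin (Ech) or IWR-1. Mdm2, gstp1 and gsr stand above DMSO in all 2ME libraries, and tuba1b, csf1r, syp, krt12.2, krt51, hoxc10, hey1 and cyp26a1 stand below it, while the 2ME libraries of myh2 spread from 73.9 to 152 CPM.

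Notochord and cartilage genes were lower with 2ME in 14 of 32 tested and higher in 1, with a median of -0.27, and 9 fell without 2ME replicate 3, without DMSO replicate 1 or with no scaling factor. The fibrillar collagen genes col2a1 (-0.40 ± 0.07) and col11a1 (-0.47 ± 0.07), the chondrocyte factor gene sox5 (-0.56 ± 0.11) and the cartilage proteoglycan genes epyc (-0.50 ± 0.11) and snorc (-0.46 ± 0.10) fell. Ihh, the signal of maturing cartilage, was the one that rose, at 0.343 ± 0.0575 and 1.32 ± 0.351 CPM. Col2a1 was at 1551 ± 36.3 CPM with DMSO, 1179 ± 100.4 CPM with 2ME and 3781 ± 438 CPM with echinomycin. Against echinomycin 21 of the list were lower and 4 higher with 2ME, and against IWR-1 16 were lower and 6 higher. Keratins of the skin gave the deepest falls among 40 tested epidermal genes, of which 14 fell and 10 rose. Krt12.2 was at 12363 to 14370 CPM with DMSO and 4894, 4864 and 5734 CPM with 2ME. The 2ME libraries lay far below the lowest DMSO library (-1.34 ± 0.16), while the gene was at 344 ± 27.6 CPM at 0 hpa and at 2678 ± 883 and 2799 ± 150.0 CPM with echinomycin and IWR-1. Krt62 (-1.38 ± 0.13), krt53 (-1.64 ± 0.27) and krt51 (-1.22 ± 0.17) fell too. Krt51, at 14.6 ± 1.12 CPM with DMSO and 6.24 ± 0.864 CPM with 2ME, was close to absent with echinomycin (0.0476 ± 0.0498 CPM) and IWR-1 (0.0143 ± 0.0247 CPM). Krt53, at 1.96 ± 0.389 CPM with 2ME, was likewise at 0.031 ± 0.0271 and 0.0458 ± 0.0467 CPM with these compounds. Keratins resemble each other, so their single values are uncertain. The goblet cell lectin gene itln1 (-0.80 ± 0.12) and desmosome gene pkp3 (-0.38 ± 0.06) fell, whereas the ionocyte proton pump gene atp6v1b1 (0.51 ± 0.07) and the skin barrier factor gene grhl3 (0.40 ± 0.06) rose. Of the list 9 fell and 15 rose with no scaling factor. The summed level of the list was 36588 to 42048 CPM with DMSO and 26227 to 27309 CPM with 2ME.

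Genes of motile cilia rose in 30 of 100 tested and fell in 3 (tppp3, ift52 and ift140, at -0.38, -0.25 and -0.25), with a median of 0.24. Foxj1.2, a transcription factor gene listed beside foxj1, rose from 2.25, 1.35 and 1.3 CPM to 5.23, 5.34 and 6.44 CPM (1.81 ± 0.26). Dnah9, an axonemal dynein gene with a long transcript, rose from 27.3, 21.3 and 20.3 CPM to 40.9, 37.8 and 40.9 CPM (0.80 ± 0.11). Cfap100 (1.93 ± 0.25) and spef2 (0.80 ± 0.12) rose as well. The 3 falls were singled out after their values were seen, and 0 were called with no scaling factor, without 2ME replicate 1 or without DMSO replicate 2. With each library's length trend removed the median was 0.26 and 31 genes rose. Compared with IWR-1 43 were higher with 2ME and 0 lower, and compared with echinomycin 36 were higher and 3 lower. Of 26 tested melanophore and neural crest genes 9 rose and 1 fell, with a median of 0.31. The melanin synthesis genes tyr (1.01 ± 0.20) and tyrp1 (0.92 ± 0.22) rose, and the crest factor gene tfap2b fell (-0.66 ± 0.07). Rises numbered 5 without 2ME replicate 1, 2ME replicate 2, DMSO replicate 1 or DMSO replicate 3, and 14 with no scaling factor. The summed level of the list went the other way, at 801 to 833 CPM with DMSO and 717 to 721 CPM with 2ME, with no overlap, and tfap2b alone fell from 345 ± 15.7 to 218 ± 10.3 CPM.

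Hox genes, which mark position along the body axis, were lower throughout the clusters. In paralog groups 1 to 4, 6 of 11 tested genes fell, in groups 5 to 8, 8 of 11 fell, and in groups 9 to 13, 12 of 16 fell, while 0 rose. The medians were -0.49, -0.57 and -0.56. Hoxc10 was at 116, 154 and 127 CPM with DMSO and 57.4, 56.3 and 64.9 CPM with 2ME, with every 2ME library far below the lowest DMSO library (-1.15 ± 0.13). At 0 hpa it was at 52.2 ± 6.05 CPM. Among anterior paralogs hoxa2 (-1.28 ± 0.21) and hoxa3 (-0.67 ± 0.07) fell, among middle ones hoxc5 (-0.93 ± 0.18) and hoxa7 (-0.73 ± 0.09), and among posterior ones hoxc11 (-0.76 ± 0.10) and hoxa9 (-0.55 ± 0.06). In groups 5 to 8, 5 fell without 2ME replicate 1, without DMSO replicate 2 or with no scaling factor. Hoxc10 did not differ detectably between 2ME and echinomycin (0.18 ± 0.13, adjusted p = 0.28) or IWR-1 (0.24 ± 0.13, adjusted p = 0.19). Of the posterior genes 9 were higher and 0 lower with 2ME than with IWR-1, among them hoxa9 (0.53 ± 0.06). Of 25 tested tailbud and progenitor factors 6 fell (24%, against 16.5% of all tested models) and 2 rose (8%, against 14.0%). Their median was -0.15, with 19 ratios below 0 and 6 above, from -1.29 to 0.99. With no scaling factor 1 fell and 2 rose, while falls numbered 2 without DMSO replicate 1 or DMSO replicate 2 and 3 without any other library of the 6. Against the direction of most of the list, lin28a, which keeps cells immature, rose from 1.63 ± 0.271 to 3.27 ± 0.251 CPM. The splicing regulator gene esrp1 (0.26 ± 0.08) rose too.

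Genes of the signalling pathways were called in both directions. Of 32 Wnt targets 5 rose and 4 fell, with a median of 0.06. The share that rose was close to the 14.0% of all tested models, and the share that fell was below their 16.5%. Myc (0.26 ± 0.06), the receptor ligase gene rnf43 (0.30 ± 0.07) and the Wnt inhibitor gene dkk1 (0.31 ± 0.09) rose. Sp8 and notum were the other rises. The falls were the feedback gene axin2 (-0.22 ± 0.07), tcf7l1 (-0.24 ± 0.07), cdx4 (-0.58 ± 0.20) and apcdd1 (-0.27 ± 0.08). Of these 4, 0 were called with no scaling factor or without DMSO replicate 2, 1 without 2ME replicate 1 or DMSO replicate 1 and 2 without 2ME replicate 2. Lef1 (74.8 ± 11.0 and 90.5 ± 5.62 CPM) and ctnnb1, the beta-catenin gene (1416 ± 45.4 and 1519 ± 28.6 CPM), did not pass. All 4 of dkk1, axin2, lef1 and ctnnb1 were higher with 2ME than with IWR-1, dkk1 by 1.42 ± 0.09 and axin2 by 0.73 ± 0.07. Of 25 FGF pathway genes 7 fell (28%) and 3 rose (12%). The ligand gene fgf9 was at -0.69 ± 0.12, fgf2 at 1.60 ± 0.33 and the inhibitor gene spred2 at 0.54 ± 0.14. Falls numbered 11 with the length trend removed, 3 without DMSO replicate 2, 4 without DMSO replicate 3 and 2, beside 6 rises, with no scaling factor. Of 42 BMP and TGF-beta genes 16 fell (38.1%) and 6 rose (14.3%). The falls included the matrix protein gene tgfbi (-0.57 ± 0.06), the procollagen protease gene bmp1 (-0.41 ± 0.06) and the ligand genes tgfb1 (-0.39 ± 0.06) and bmp2 (-0.41 ± 0.07). The receptor gene tgfbr2 rose (0.43 ± 0.07). The count became 7 lower and 10 higher with no scaling factor, and 3 rose without 2ME replicate 1 or DMSO replicate 2. Of 18 Notch pathway genes 5 fell (27.8%) and 3 rose (16.7%), 3 and 7 with no scaling factor. The target gene hey1 was at 38.5, 38.6 and 35.9 CPM with DMSO and 16.7, 16.8 and 20.5 CPM with 2ME (-1.06 ± 0.09). The groups stood far apart, and the ligand gene dll1 (-0.73 ± 0.19) and the nuclear mediator gene rbpj (-0.35 ± 0.07) fell with it, whereas the receptor genes notch1 and notch3 (0.36 ± 0.07) rose. Of 16 Hedgehog genes 5 fell (31.25%) and 3 rose (18.75%). The co-receptor gene gas1 fell (-0.48 ± 0.08). Among the other falls were shh (-0.30 ± 0.10), smo (-0.19 ± 0.07) and boc (gene1080) (-0.34 ± 0.11), and the rises ihh, gli2 and cdon (0.36 ± 0.08). Falls numbered 1 without 2ME replicate 3, without DMSO replicate 1 or with no scaling factor (where 4 rose), 2 without DMSO replicate 2 and 3 without 2ME replicate 2 or DMSO replicate 3.

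Matrix genes were called in both directions. Of 68 tested, 16 fell (23.5%, against 16.5% of all tested models) and 12 rose (17.6%, against 14.0%), with a median of -0.08. With the length trend removed 24 were lower and 8 higher, with a median of -0.16, and with no scaling factor 9 were lower and 16 higher. The small proteoglycan gene dcn was at 540.1, 555 and 549 CPM with DMSO and 371, 371 and 379.7 CPM with 2ME (-0.55 ± 0.05). Lum (-0.72 ± 0.07), the collagen I genes col1a1 (-0.48 ± 0.06) and col1a2 (-0.49 ± 0.06) and their chaperone gene serpinh1 (-0.59 ± 0.08) fell. Falls numbered 10 without 2ME replicate 3. Rises numbered 1 without 2ME replicate 1, 3 without DMSO replicate 2 and 7 without DMSO replicate 3. Compared with echinomycin 49 of the 68 were lower with 2ME and 6 higher, and compared with IWR-1 38 were lower and 6 higher. Col1a1, for example, was at 6795 ± 399.8 CPM with 2ME, 13755 ± 645 CPM with echinomycin and 8779 ± 418 CPM with IWR-1. Among 41 matrix proteases and inhibitors 7 fell and 5 rose, against 5 and 7 with no scaling factor. The collagenase gene mmp8 fell from 11.2 ± 2.97 to 4.28 ± 0.28 CPM and the matrilysin gene mmp7 from 92.1 ± 8.75 to 59.4 ± 3.84 CPM, and adamts18 (-0.86 ± 0.14) and serpinf1 (-0.48 ± 0.09) fell too. The rises were mmp14 (0.16 ± 0.06), mmp28 (0.43 ± 0.11), adam10 (0.26 ± 0.07), timp3 (0.56 ± 0.20) and the plasminogen activator gene plat (0.49 ± 0.12), mmp14 and timp3 being singled out after their values were seen. They numbered 3 without 2ME replicate 1, 2ME replicate 3 or DMSO replicate 2.

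Every tested ribosomal protein gene fell. All 77, collected by the pattern of their symbols and so including a few related genes, were called lower, where 16.5% of all tested models were, and their log2 ratios ran from -0.81 to -0.23 with a median of -0.42. Rps13, for example, was at 903, 1045 and 833 CPM with DMSO and 626, 679 and 654 CPM with 2ME (-0.51 ± 0.08). The DMSO libraries stood above all 2ME libraries, DMSO replicate 2 highest, and the 0 hpa level was 639 ± 55.1 CPM. These transcripts are short, and with each library's length trend removed all 77 were still lower, with a median of -0.31. With no scaling factor 75 were lower, with a median of -0.28. The 2ME level was close to those with the other compounds, with a median of -0.10 against echinomycin and -0.01 against IWR-1, and 3 genes higher and 1 lower than with echinomycin and 0 called against IWR-1. Of 80 ribosome biogenesis genes 24 rose (30%, against 14.0% of all tested models) and 6 fell (7.5%, against 16.5%). Their median was 0.05. Assembly factor genes utp4 (0.38 ± 0.07), ddx56 (0.29 ± 0.06) and utp14a (0.25 ± 0.06) rose. The count was 21 higher and 2 lower with the length trend removed. The rises numbered 12 without 2ME replicate 1 or 2ME replicate 2 and 41 with no scaling factor. Falls numbered 1 without DMSO replicate 2, 2 without 2ME replicate 1, 3 without 2ME replicate 3 or DMSO replicate 1 and 0 with no scaling factor. Compared with echinomycin 77 of the 80 were higher with 2ME and 1 lower, and compared with IWR-1 47 were higher and 0 lower. Of 49 genes of the ATF4 and unfolded protein responses 22 fell and 6 rose, with a median of -0.13, and 13 fell with no scaling factor, while 3 rose without 2ME replicate 1 or DMSO replicate 2. Chac1, which degrades glutathione, was at 155, 149 and 187 CPM with DMSO and 74.9, 78.0 and 81.6 CPM with 2ME (-1.07 ± 0.11). The secreted factor gene manf (-0.43 ± 0.06), the tRNA ligase gene gars1 (-0.36 ± 0.06) and atf4 (-0.34 ± 0.06) fell, while cth, which makes cysteine, rose (0.65 ± 0.07).

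**Figure D5:**
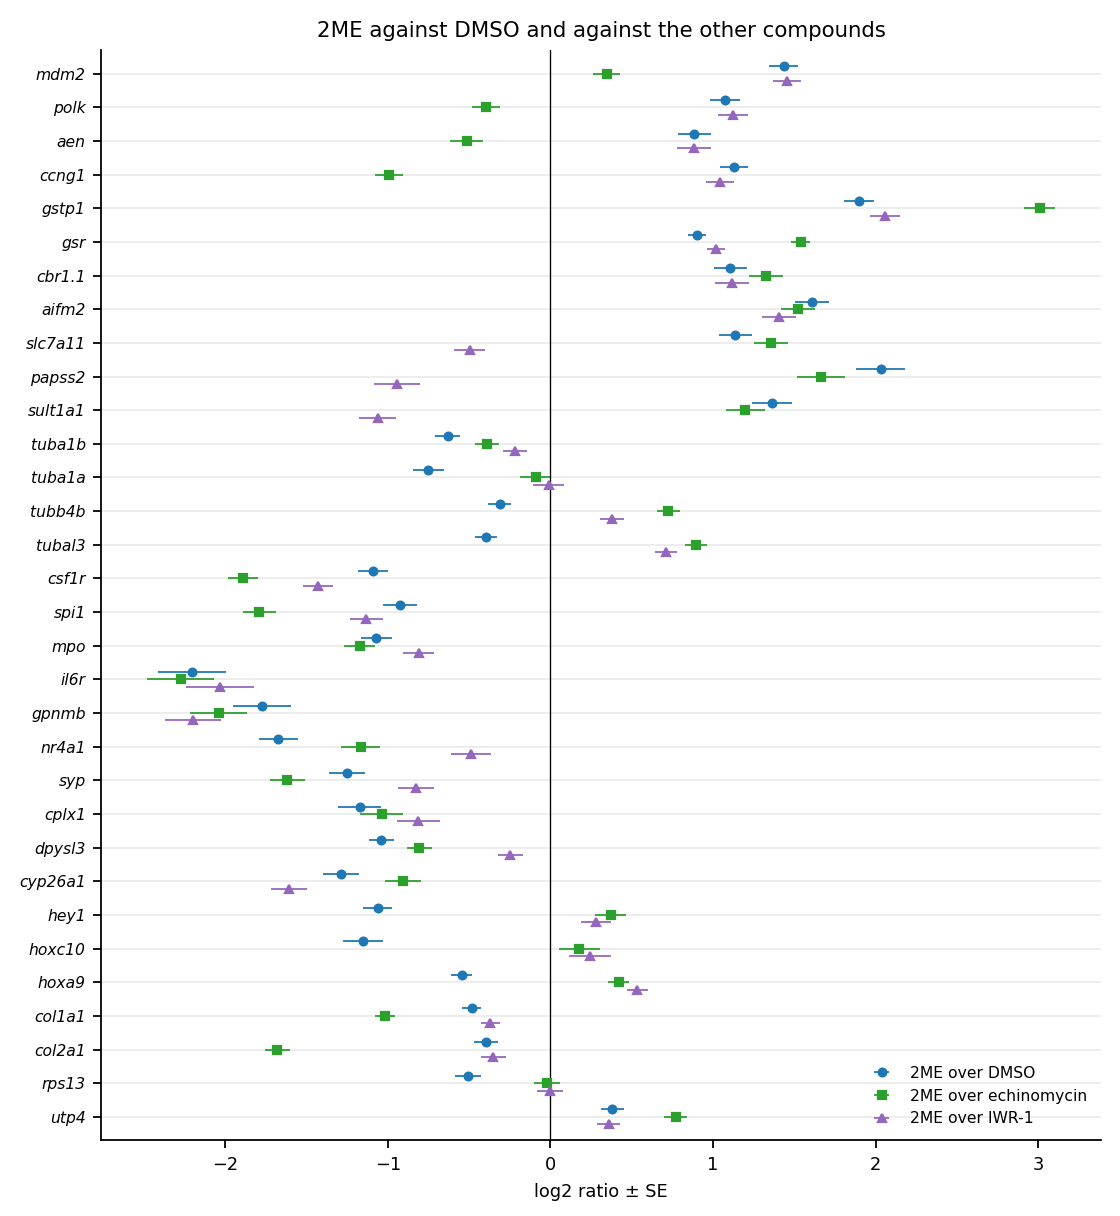
Log2 ratio ± SE of 2ME over DMSO (circles), over echinomycin (squares) and over IWR-1 (triangles) for 32 genes named in the text. Gstp1, gsr, cbr1.1 and aifm2 lie right of 0 and csf1r, spi1, mpo, il6r, gpnmb, nr4a1, syp, cplx1, dpysl3 and cyp26a1 left of 0 in all 3 comparisons, whereas ccng1, aen and polk lie on opposite sides for DMSO and echinomycin, and tuba1a, hoxc10 and rps13 lie near 0 against both other compounds.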

How the data were processed

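Trim Galore 0.6.5, kallisto and edgeR are the tools that the submitters' processing notes list. What build or annotation lay behind the gene models was not given in the sources used here. Deposited tables hold the authors' estimated count, effective length and TPM for each gene model, per the file headers, and a deposited table of the authors gives CPM for 15892 models with no scaling factor in it. Whether counting used strand is not stated, so overlapping and antisense genes cannot be told apart. TPM was not used in a test.

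Estimated counts were rounded and fitted with edgeR 4.0.16 in R 4.3.3: 15 libraries, 1 coefficient per group, TMM factors, filterByExpr (minimum count 10, total 15), the quasi-likelihood F test and Benjamini-Hochberg adjustment over 18823 models. The common biological coefficient of variation was 0.0936. Names are those of the files, and a reference table of UCB_Xtro_10.0 was used for synonyms only. Of 1854 list entries, 192 had no model. The 46 lists and the comparison were chosen with earlier results of these data known. Named genes are the 15 largest rises and falls with at least 5 CPM and no overlap, up to 8 called members per list by p, all tubulins, HIF genes and receptors, and a few fixed names. Not every gene the rule names is described, and a few genes are not reported here. Others were chosen after their values were seen, among them the few list members called against the rest of their list. As alternatives, upper-quartile, RLE or no factors, no filter or a mean of 10 counts, DESeq2 1.42.0, the 2 groups alone, a replicate block, an effective length offset, limma 3.58.1 on log2(CPM + 1) and each library left out. Removal of the length trend (lowess, span 0.3) was added after the data were seen.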

Additional observations from a re-analysis of the deposited data

How the results depend on the processing

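Between 2ME and DMSO 5749 models were called, 2634 higher and 3115 lower. With no scaling factor 4550 were higher and 1598 lower, and limma on the deposited CPM values gave 4417 and 1438, with 276 at 2-fold or more against 874. Leaving out 1 library gave 3766 to 5366 calls, 1800 to 2579 higher, 1940 to 2787 lower and 696 to 954 at 2-fold or more, fewest calls without DMSO replicate 2. Against echinomycin 8301 models were called, 7021 to 7678 without 1 library, and against IWR-1 4235, 2893 to 3796 without 1 library. The replicate block left 5446 calls between 2ME and DMSO. Deviations of same-numbered libraries had correlations of 0.023, 0.069 and 0.003, and those of differently numbered ones ran from -0.10 to 0.079. With 3 libraries a group this cannot decide whether the numbers pair the samples. Of 256 genes named, 245 were called, 199 of them under every alternative that gave an adjusted p, and 0 of the called changed sign. Among those not called, egln1 turned to 0.0582 (limma on deposited CPM) and 0.0657 (no scaling factor) and cyp1a1 to 0.00357 and 0.0232. Without 1 library cyp1a1 ran from -0.31 to 0.0978 and cyp1b1 from -0.13 to 0.46. The cause of these changes was not tested. Genes near 1 CPM rest on few counts, and 3 libraries a group limit what can be called.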

Other observations

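Genes of heat shock, lipid synthesis and glycolysis were higher in part with 2ME. Of 40 tested heat shock genes 11 rose and 0 fell, with a median log2 ratio of 0.10 against -0.02 over all tested models. The mitochondrial chaperone gene hspd1 rose from 225, 227 and 212 CPM to 320.3, 326 and 299 CPM (0.51 ± 0.08), hspa13 by 0.90 ± 0.18 and hsp90aa1.1 by 0.47 ± 0.11. Rises numbered 4 without 2ME replicate 1, 5 without 2ME replicate 2 and 7 without DMSO replicate 1. Of 39 genes of sterol and fatty acid synthesis 10 rose and 0 fell, with a median of 0.15. Squalene epoxidase gene sqle rose from 20.1, 19.4 and 21.6 CPM to 33.6, 36.6 and 37.0 CPM (0.81 ± 0.16), and fatty acid synthase gene fasn (0.72 ± 0.16), acaca (0.68 ± 0.14) and hmgcs1 (0.48 ± 0.12) rose too. The rises numbered 19 with the 2 groups fitted alone, 18 with no scaling factor and 6 without 2ME replicate 3. Against IWR-1 the list was lower with 2ME in 27 and higher in 2, with sqle at 89.5 ± 27.4 CPM with IWR-1. Of 26 glycolysis genes 8 rose and 1 fell (pgk1, -0.33 ± 0.09), with a median of 0.01. The regulator gene pdk3 (0.74 ± 0.15) and the lactate transporter gene slc16a1 were among the rises.

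Of 36 actin, SRF and YAP target genes 7 rose and 8 fell. Wwtr1, which encodes the coactivator TAZ, rose from 7.76 ± 2.05 to 19.0 ± 2.61 CPM and the receptor kinase gene axl by 0.57 ± 0.08. The calponin gene cnn3 was at 515, 579.7 and 527 CPM with DMSO and 326, 338 and 368 CPM with 2ME (-0.65 ± 0.08), and rhob (-0.51 ± 0.05) and tead1, the partner of YAP and TAZ (-0.62 ± 0.10), fell too. With no scaling factor 13 rose and 6 fell, and with the length trend removed 6 rose and 12 fell. Vessels and blood showed few calls. Of 40 endothelial genes 4 rose and 3 fell, robo4 at 0.34 ± 0.07 and egfl7 at -0.59 ± 0.11 being the calls with the smallest p in each direction. Rises numbered 2 without 2ME replicate 1, 2ME replicate 2 or DMSO replicate 3, and falls 5 without 2ME replicate 1 and 1 without 2ME replicate 3, DMSO replicate 1 or DMSO replicate 2. Of 29 erythroid genes 3 rose and 0 fell, tmod4 at 0.81 ± 0.19, and the calls of the other 2, fech and epb41, were lost without any one of the 6 libraries. With the 2 groups fitted alone 8 rose and 4 fell. Compared with echinomycin 29 of the 40 endothelial genes were lower with 2ME and 1 higher, and compared with IWR-1 10 were lower and 1 higher.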
